A study of Mus musculus with 7 samples.

Results

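The genes of DNA replication were chosen by name: 35 genes of the replication fork, of nucleotide synthesis and of the G1/S switch, among the 43346 genes counted in whole colon tumors of mice carrying *Dnmt3a*(+/-) or *Dnmt3a*(+/+) bone marrow (BM). All 35 were measured in all 7 tumors, and all 35 had enough counts to be tested among 15810 genes. The list uses no measured value, but it was chosen with earlier results of these data known. It holds 10 genes of origin licensing (*Orc1*, *Orc6*, *Cdc6*, *Cdt1* and *Mcm2* to *Mcm7*), 6 of helicase activation (*Mcm10*, *Cdc45* and *Gins1* to *Gins4*), 6 of the primase and polymerases (*Pola1*, *Pola2*, *Prim1*, *Prim2*, *Pole* and *Pold1*), 5 of the clamp and its loader (*Pcna* and *Rfc2* to *Rfc5*), 2 of Okazaki fragment joining (*Fen1* and *Lig1*), 3 of nucleotide synthesis (*Rrm1*, *Rrm2* and *Tyms*) and 3 G1/S regulators (*E2f1*, *Ccne1* and *Ccne2*).

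As background, a cell licenses its replication origins in G1, when the origin recognition complex, *Cdc6* and *Cdt1* load the ring-shaped *Mcm2* to *Mcm7* helicase onto DNA. At the start of S phase, *Cdc45* and the GINS complex join the ring to form the active helicase, the primase and polymerase α start each strand, and polymerases ε and δ extend it on the sliding clamp *Pcna*. Most of these genes are transcribed in late G1 and S phase under E2F transcription factors, which cyclin E and its kinase release from the Rb protein, and in the colon they are active in the dividing cells of the crypt base and of tumors.

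Tumors were induced in transplanted mice congenic with their donors, which had a C57BL6/J background. The colon carcinogen azoxymethane (AOM, 10 mg/kg) was injected once. Dextran sulfate sodium (DSS, 3% in the drinking water), an agent that inflames the colon, followed in 3 cycles of 1 week with 2 weeks of rest between them. All recipients carried wild-type *Dnmt3a*, had been irradiated and were aged 8 weeks in the labels (the methods give another age). Their grafts came from mice with 1 *Dnmt3a* allele deleted by Mx1-Cre, an interferon-inducible Cre activated by poly(I:C), or from littermates with wild-type *Dnmt3a*. Per the paper, these control donors also carried Mx1-Cre and were given poly(I:C). There were 4 tumors with *Dnmt3a*(+/-) BM and 3 with *Dnmt3a*(+/+) BM. Replicates 1 and 2 of each group have the prefix BMT18 in the labels. *Dnmt3a*(+/+) replicate 3 and *Dnmt3a*(+/-) replicates 3 and 4 have the prefix BMT8. The 2 prefixes are taken here as 2 experiments, since the paper abbreviates BM transplantation as BMT, but the labels do not state what they mean. The labels number biological replicates and add a further number after the prefix, without stating which mouse each tumor came from. A suffix 2 follows that number for *Dnmt3a*(+/-) replicates 2, 3 and 4 and for no other tumor. Its meaning is not stated, and it occurs in 1 group alone. In 1 sentence the paper derives the tumors from 3 animals with *Dnmt3a*(+/-) BM and 4 controls, the reverse of the group sizes in the labels. The spread below is that between tumors. Values are CPM, a gene's counts relative to the library's total, on a scale corrected for library composition, and total counts ranged from 38472738 to 64314999 per tumor. A fold change is that of *Dnmt3a*(+/-) BM over *Dnmt3a*(+/+) BM on the log2 scale, with its standard error (SE), from the quasi-likelihood test of edgeR, and adjusted p-values are those of Benjamini and Hochberg over all genes tested. *Dnmt3a* itself had 30.3 ± 8.94 CPM over the *Dnmt3a*(+/-) tumors (SD, n = 4) against 22.5 ± 2.06 CPM over the *Dnmt3a*(+/+) tumors (SD, n = 3), and the log2 fold change was 0.43 (SE 0.24, adjusted p = 0.54). Since the deletion is carried by graft-derived cells alone, its level in the whole tumor is no check of the labels. The tissue labelled as colon tumor held high levels of the epithelial markers *Epcam* (1889 and 2641 CPM with *Dnmt3a*(+/-) and *Dnmt3a*(+/+) BM) and *Krt8* (6009 and 10304 CPM).

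Most replication genes had higher mean levels in tumors with *Dnmt3a*(+/-) BM, by small amounts, and no gene passed the test. The log2 fold change was above 0 for 33 of 35 genes (35 when counts were scaled by library size alone, a scaling that put the median over all genes at 0.21), where 50.2% of all genes tested were above 0, and its median was 0.32 (1.24-fold), where the median over all genes was 0.0025 and 24.9% of genes reached at least the members' median. The range ran from -0.090 for *Gins4* to 0.84 for *Cdc6*. With a call defined as a log2 fold change beyond 1 in size and an adjusted p below 0.05, edgeR called 0 of the 35 genes, as it did 0 of all genes tested (0%), while DESeq2 called 0 of the 35 against 304 of 15043 genes (2.02%). At an unadjusted p under 0.05, edgeR placed 2 genes higher (*Mcm2* and *Cdc6*) and 0 lower, where 5.83% of all genes were higher and 5.2% lower. The share of members was close to that of all genes in this fit, whereas with counts scaled by library size alone 15 of the 35 genes were higher, where 10.7% of all genes were. DESeq2 placed 3 of the 35 higher at the same unadjusted p (7.75% of all genes) and 0 lower. The count rested on single tumors. Without *Dnmt3a*(+/+) replicate 3 it was 19 of 35 (6.04% of all genes), but the *Dnmt3a*(+/+) tumors left were then all from BMT18. Without *Dnmt3a*(+/-) replicate 1 it was 5 (7.71%), and without *Dnmt3a*(+/-) replicate 3 it was 1 (4.54%). Without any one of *Dnmt3a*(+/+) replicates 1 and 2 and *Dnmt3a*(+/-) replicates 2 and 4 it was 0 (2.72% to 5.48%).

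The lowest and the highest tumor were the same for most of the genes. The 35 genes took 0.0952, 0.128 and 0.154% of all counts in the *Dnmt3a*(+/+) tumors (replicates 1 to 3) and 0.141, 0.216, 0.172 and 0.201% in the *Dnmt3a*(+/-) tumors (replicates 1 to 4). Their mean log2(CPM + 0.5) was 4.40, 4.74 and 5.18 in the *Dnmt3a*(+/+) tumors and 4.83, 5.20, 4.996 and 5.40 in the *Dnmt3a*(+/-) tumors. The group means differed by 0.33, which was less than the SD of 0.39 among the *Dnmt3a*(+/+) tumors and more than the SD of 0.25 among the *Dnmt3a*(+/-) tumors. *Dnmt3a*(+/+) replicate 1 was the lowest tumor for 30 of 35 genes (14.6% of all genes), and *Dnmt3a*(+/-) replicate 4 was the highest for 25 (15.5% of all genes), with *Dnmt3a*(+/-) replicate 2 the highest for 9 (24.7%) and *Dnmt3a*(+/+) replicate 3 for 1 (18.3%). The groups overlapped in every one of the 35 genes, where 6.12% of all genes had every *Dnmt3a*(+/-) tumor above every *Dnmt3a*(+/+) tumor and 6.32% the opposite. The overlap came mainly from *Dnmt3a*(+/+) replicate 3, which exceeded *Dnmt3a*(+/-) replicate 1 in 32 genes. Without it, 21 genes had every *Dnmt3a*(+/-) tumor above both remaining *Dnmt3a*(+/+) tumors (12.8% of all genes). Both remaining *Dnmt3a*(+/+) tumors are from BMT18 and the *Dnmt3a*(+/-) tumors from both experiments, so group and experiment are mixed in this count. In whole tumors, fewer dividing cells and less of these transcripts per cell cannot be told apart.

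**Figure D1:**
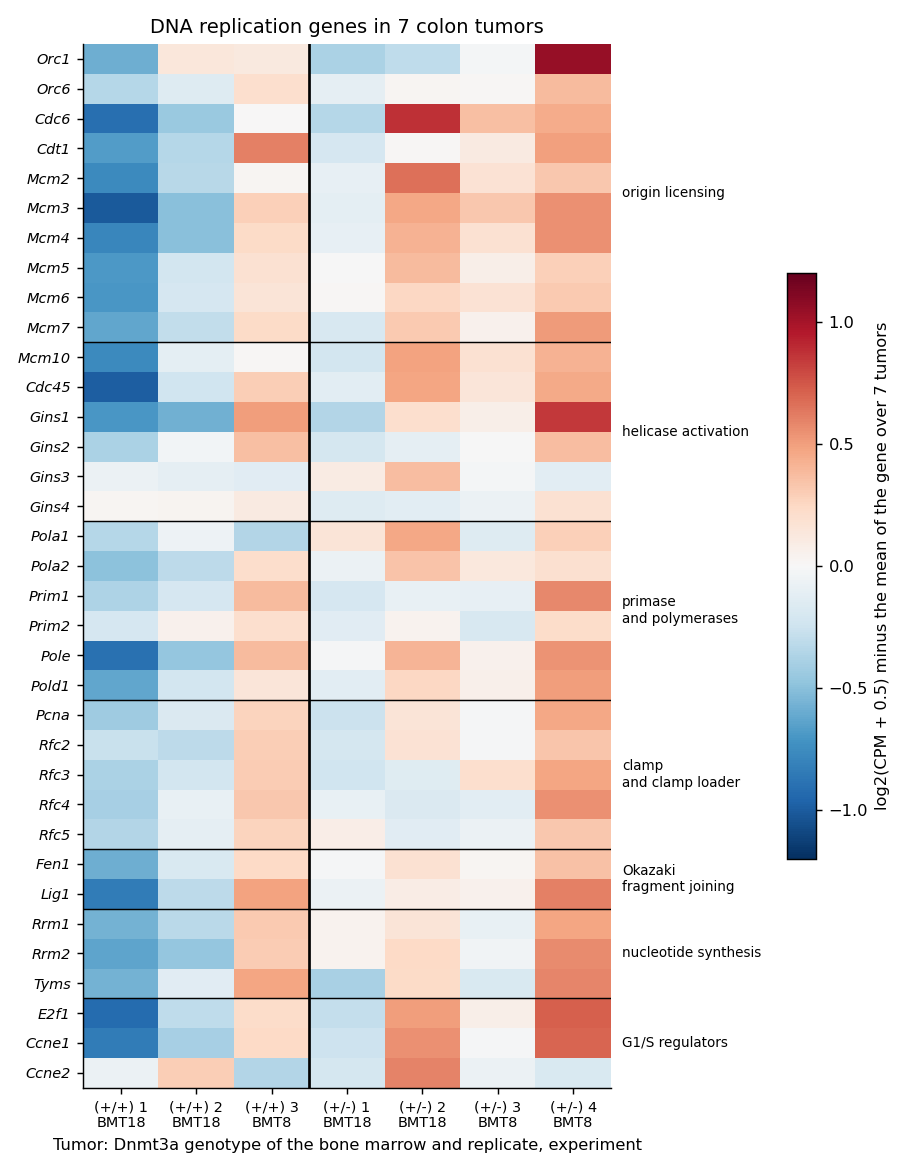
Heat map of log2(CPM + 0.5) of each gene minus its mean over the 7 tumors, with 1 row for each of the 35 genes, in 7 roles divided by horizontal lines, and 1 column for each tumor with its experiment. The black vertical line divides the 3 *Dnmt3a*(+/+) tumors on the left from the 4 *Dnmt3a*(+/-) tumors. Blue is below and red above the gene's mean. *Dnmt3a*(+/+) replicate 1 is the lowest in 30 rows, and *Dnmt3a*(+/-) replicate 4 is the highest in 25.

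Origin licensing held the 2 genes with the lowest p. All 10 genes had positive log2 fold changes, with a median of 0.39 and a range from 0.16 to 0.84. *Cdc6* (ENSMUSG00000017499, chr11:98907801-98923940), an ATPase that helps to load the helicase, had 4.97, 7.06 and 9.79 CPM in the *Dnmt3a*(+/+) tumors and 7.61, 18.4, 12.7 and 13.5 CPM in the *Dnmt3a*(+/-) tumors, in the order of their replicate numbers, as for all genes below. *Dnmt3a*(+/-) replicates 2, 3 and 4 lay above all *Dnmt3a*(+/+) tumors, and replicate 1 lay between them. *Cdc6* averaged 13.0 ± 4.40 CPM over the *Dnmt3a*(+/-) tumors (SD, n = 4) against 7.27 ± 2.42 CPM over the *Dnmt3a*(+/+) tumors (SD, n = 3), and the log2 fold change was 0.84 (SE 0.36, adjusted p = 0.45). *Mcm2* (ENSMUSG00000002870, chr6:88883474-88898780), a subunit of the helicase ring that also binds histones, had 35.5, 47.9 and 61.7 CPM with *Dnmt3a*(+/+) BM and 56.6, 95.7, 68.4 and 76.0 CPM with *Dnmt3a*(+/-) BM. Again only *Dnmt3a*(+/-) replicate 1 fell within the range of the *Dnmt3a*(+/+) tumors. *Mcm2* averaged 74.2 ± 16.4 CPM over the *Dnmt3a*(+/-) tumors (SD, n = 4) against 48.4 ± 13.1 CPM over the *Dnmt3a*(+/+) tumors (SD, n = 3), and the log2 fold change was 0.62 (SE 0.24, adjusted p = 0.43). The unadjusted p was 0.0366 for *Mcm2* and 0.0497 for *Cdc6* in edgeR's fit over all genes, and the exact permutation test over the 35 splits of the tumors, two-sided, gave 0.0857 for each (the smallest it can give is 0.0286).

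The other 5 subunits of the helicase ring also had higher mean levels with *Dnmt3a*(+/-) BM, and none passed the test. *Mcm3* ranged over 36.7 to 90.3 CPM with *Dnmt3a*(+/+) BM and 68.5 to 109 CPM with *Dnmt3a*(+/-) BM. *Mcm4* ranged over 28.1 to 57.1 CPM with *Dnmt3a*(+/+) BM and 45.3 to 71.2 CPM with *Dnmt3a*(+/-) BM. *Mcm5* ranged over 51.5 to 94.4 CPM with *Dnmt3a*(+/+) BM and 83.0 to 108 CPM with *Dnmt3a*(+/-) BM. All 3 reached their lowest level in *Dnmt3a*(+/+) replicate 1, and their log2 fold changes were 0.64, 0.57 and 0.39 (SE 0.32, 0.27 and 0.22). *Mcm6* ranged over 51.3 to 93.1 CPM with *Dnmt3a*(+/+) BM and 84.1 to 104 CPM with *Dnmt3a*(+/-) BM. *Mcm7* ranged over 66.0 to 119.6 CPM with *Dnmt3a*(+/+) BM and 89.1 to 145 CPM with *Dnmt3a*(+/-) BM. Their log2 fold changes were 0.40 and 0.38 (SE 0.21 and 0.25). Over *Mcm2* to *Mcm7* the median log2 fold change was 0.48 (1.40-fold), and the mean log2(CPM + 0.5) was 5.45, 5.86 and 6.39 in the *Dnmt3a*(+/+) tumors and 6.12, 6.62, 6.37 and 6.63 in the *Dnmt3a*(+/-) tumors. *Cdt1*, the loading factor that is degraded in S phase, ranged over 14.1 to 34.8 CPM with *Dnmt3a*(+/+) BM and 19.7 to 32.2 CPM with *Dnmt3a*(+/-) BM, and it was the 1 gene of the 35 with no *Dnmt3a*(+/-) tumor above every *Dnmt3a*(+/+) tumor. *Orc6*, a small subunit of the origin recognition complex, ranged over 21.3 to 31.2 CPM with *Dnmt3a*(+/+) BM and 25.1 to 35.5 CPM with *Dnmt3a*(+/-) BM. *Orc1*, its large ATPase subunit, ranged over 6.07 to 10.4 CPM with *Dnmt3a*(+/+) BM and 7.09 to 19.9 CPM with *Dnmt3a*(+/-) BM. In *Orc1*, *Dnmt3a*(+/-) replicate 4 alone exceeded the *Dnmt3a*(+/+) tumors, and leaving it out gave a log2 fold change of -0.17 in place of 0.29.

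The promoters of these genes were searched for letters that E2F factors bind. Of the 35 genes, 27 had a promoter in the RefSeq table (250 bases before to 50 after each start, GRCm38.p6). On either strand, 12 of these 27 (44.4%) held TTTCCCGC, TTTGGCGC, TTTCGCGC or TTTGCCGC, where 704 of all 27025 genes (2.61%) did. CCAAT, the letters of the box bound by NF-Y, stood in 16 of 27 (59.3%) against 41.1% of all genes, and TTTGAA, the letters of the cell-cycle genes homology region (CHR), in 4 of 27 (14.8%) against 20.2%. Of the 18 matches to the E2F letters in members, 11 lay within 100 bases of a start. A match is a description of the letters and not a bound site. The 180 bases before the start of 4 members are printed, since *Mcm5* and *Mcm6* hold the most matches there, *Pola1* holds 1, and *Mcm2*, the member with the lowest p, holds 0 and shows the contrast. Capitals mark the E2F letters, on either strand, and in *Mcm5* and *Mcm6* a forward and a reverse match overlap.
Mcm5 (chr8:75109329-75109508, plus strand): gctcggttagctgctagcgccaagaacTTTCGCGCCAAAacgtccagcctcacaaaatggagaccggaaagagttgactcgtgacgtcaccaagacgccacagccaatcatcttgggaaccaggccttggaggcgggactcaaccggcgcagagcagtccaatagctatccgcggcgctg
Mcm6 (chr1:128359706-128359885, minus strand): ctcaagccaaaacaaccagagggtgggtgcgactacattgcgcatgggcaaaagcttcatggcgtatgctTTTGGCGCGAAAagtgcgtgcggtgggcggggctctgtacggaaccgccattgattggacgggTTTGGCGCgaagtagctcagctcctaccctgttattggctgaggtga
Pola1 (chrX:93632156-93632335, minus strand): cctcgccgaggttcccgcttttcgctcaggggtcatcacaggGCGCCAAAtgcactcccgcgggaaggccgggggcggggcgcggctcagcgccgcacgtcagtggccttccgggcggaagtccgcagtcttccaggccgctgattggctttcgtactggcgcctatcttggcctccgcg
Mcm2 (chr6:88898781-88898960, minus strand): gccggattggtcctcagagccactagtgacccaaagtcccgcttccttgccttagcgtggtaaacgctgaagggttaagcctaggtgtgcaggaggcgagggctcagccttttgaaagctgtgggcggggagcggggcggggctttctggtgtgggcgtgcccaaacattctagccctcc

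In *Mcm6*, which holds 3 of the matches, the first bases of the matches lay 110, 106 and 47 bases before the start. The fold changes of genes with and without the letters were not compared. The promoters of *Mcm4*, *Ccne2*, *Prim2*, *Pole*, *Gins1*, *Gins2*, *Rfc2* and *Gins4* were not analysed here.

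In helicase activation, *Mcm10*, *Cdc45* and *Gins1* had log2 fold changes like those of the Mcm ring, and *Gins2*, *Gins3* and *Gins4* lay nearer to 0. *Cdc45* (ENSMUSG00000000028, chr16:18780447-18811987), which completes the active helicase, had 7.55, 13.0 and 19.1 CPM in the *Dnmt3a*(+/+) tumors and 14.1, 21.7, 17.1 and 21.4 CPM in the *Dnmt3a*(+/-) tumors. *Dnmt3a*(+/-) replicates 2 and 4 lay above all *Dnmt3a*(+/+) tumors, and replicates 1 and 3 lay below *Dnmt3a*(+/+) replicate 3. *Cdc45* averaged 18.6 ± 3.63 CPM over the *Dnmt3a*(+/-) tumors (SD, n = 4) against 13.2 ± 5.76 CPM over the *Dnmt3a*(+/+) tumors (SD, n = 3), and the log2 fold change was 0.49 (SE 0.33, adjusted p = 0.61). *Mcm10*, which helps to activate the helicase, ranged over 9.38 to 16.5 CPM with *Dnmt3a*(+/+) BM and 13.9 to 23.0 CPM with *Dnmt3a*(+/-) BM, with a log2 fold change of 0.51 (SE 0.27). The 4 subunits of GINS differed from each other. *Gins1* ranged over 10.2 to 24.01 CPM with *Dnmt3a*(+/+) BM and 13.1 to 30.8 CPM with *Dnmt3a*(+/-) BM, with a log2 fold change of 0.42 (SE 0.40). *Gins2* (ENSMUSG00000031821, chr8:120578633-120589304) was the member nearest to 0 and had 36.3, 46.2 and 60.9 CPM in the *Dnmt3a*(+/+) tumors and 40.7, 43.8, 47.2 and 61.5 CPM in the *Dnmt3a*(+/-) tumors. The values of the groups lay across each other over their whole range, and the log2 fold change was 0.015 (SE 0.22, adjusted p = 0.99). Its exons share 67.3% of their bases with *Gse1* on the opposite strand. *Gins3* ranged over 3.24 to 3.44 CPM with *Dnmt3a*(+/+) BM and 3.27 to 4.83 CPM with *Dnmt3a*(+/-) BM. *Gins4* ranged over 34.0 to 36.1 CPM with *Dnmt3a*(+/+) BM and 29.99 to 38.1 CPM with *Dnmt3a*(+/-) BM. *Gins3* had a log2 fold change of 0.22 (SE 0.28) and *Gins4* one of -0.090 (SE 0.14), and *Gins4* turned to 0.12 when counts were scaled by library size alone.

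Among the enzymes that synthesize the strands, the 4 polymerase subunits had log2 fold changes of 0.33 to 0.51 and the 2 primase subunits of -0.037 to 0.11. *Pola1* (ENSMUSG00000006678, chrX:93304767-93632155), the catalytic subunit of polymerase α, had 15.7, 19.1 and 15.6 CPM in the *Dnmt3a*(+/+) tumors and 22.3, 27.9, 17.95 and 24.6 CPM in the *Dnmt3a*(+/-) tumors. *Dnmt3a*(+/-) replicate 3 lay below *Dnmt3a*(+/+) replicate 2, and the other *Dnmt3a*(+/-) tumors lay above all 3. *Pola1* averaged 23.2 ± 4.19 CPM over the *Dnmt3a*(+/-) tumors (SD, n = 4) against 16.8 ± 1.99 CPM over the *Dnmt3a*(+/+) tumors (SD, n = 3), and the log2 fold change was 0.46 (SE 0.20, adjusted p = 0.45). *Pole*, the catalytic subunit of polymerase ε, ranged over 6.23 to 15.8 CPM with *Dnmt3a*(+/+) BM and 11.9 to 17.7 CPM with *Dnmt3a*(+/-) BM. *Pold1*, that of polymerase δ, ranged over 15.3 to 26.6 CPM with *Dnmt3a*(+/+) BM and 21.9 to 34.2 CPM with *Dnmt3a*(+/-) BM. *Pola2*, the regulatory subunit of polymerase α, ranged over 14.2 to 23.4 CPM with *Dnmt3a*(+/+) BM and 19.3 to 25.8 CPM with *Dnmt3a*(+/-) BM. Their log2 fold changes were 0.51, 0.40 and 0.33 (SE 0.35, 0.24 and 0.22). *Prim1*, the catalytic subunit of the primase, ranged over 20.8 to 35.5 CPM with *Dnmt3a*(+/+) BM and 23.5 to 40.7 CPM with *Dnmt3a*(+/-) BM. *Prim2*, its large subunit, ranged over 14.7 to 19.6 CPM with *Dnmt3a*(+/+) BM and 14.8 to 19.8 CPM with *Dnmt3a*(+/-) BM. Their log2 fold changes were 0.11 and -0.037 (SE 0.27 and 0.19), and without *Dnmt3a*(+/-) replicate 4, the highest tumor for both, *Prim1* was at -0.10. Scaled by library size alone, *Prim2* was at 0.18.

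The clamp and its loader had the smallest differences of the 7 roles, with a median log2 fold change of 0.15 and a range from 0.10 to 0.19. *Pcna* (ENSMUSG00000027342, chr2:132249162-132253314), the sliding clamp, had 169, 201 and 274 CPM in the *Dnmt3a*(+/+) tumors and 189.6, 252, 224 and 313 CPM in the *Dnmt3a*(+/-) tumors. *Dnmt3a*(+/+) replicate 3 lay above 3 of the 4 *Dnmt3a*(+/-) tumors. *Pcna* averaged 245 ± 52.3 CPM over the *Dnmt3a*(+/-) tumors (SD, n = 4) against 214 ± 53.9 CPM over the *Dnmt3a*(+/+) tumors (SD, n = 3), and the log2 fold change was 0.19 (SE 0.24, adjusted p = 0.81). The pseudogene Pcna-ps2 held 266 counts over the 7 tumors against 70702 for *Pcna*. The loader subunits *Rfc2*, *Rfc3*, *Rfc4* and *Rfc5* had log2 fold changes of 0.15, 0.17, 0.10 and 0.10 (SE 0.21, 0.25, 0.26 and 0.20). *Rfc2* ranged over 44.4 to 68.0 CPM with *Dnmt3a*(+/+) BM and 47.8 to 69.5 CPM with *Dnmt3a*(+/-) BM. *Rfc3* ranged over 23.9 to 38.8 CPM with *Dnmt3a*(+/+) BM and 26.4 to 43.7 CPM with *Dnmt3a*(+/-) BM. In all 5 genes, *Dnmt3a*(+/-) replicate 4 was the highest tumor, and the 3 others each lay below at least 1 *Dnmt3a*(+/+) tumor. *Rfc4* ranged over 17.3 to 28.8 CPM with *Dnmt3a*(+/+) BM and 20.3 to 33.9 CPM with *Dnmt3a*(+/-) BM. *Rfc5* ranged over 26.5 to 40.8 CPM with *Dnmt3a*(+/+) BM and 30.8 to 42.4 CPM with *Dnmt3a*(+/-) BM.

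Okazaki fragments, the short pieces of the lagging strand, are trimmed by *Fen1* and joined by *Lig1*. *Fen1* (ENSMUSG00000024742, chr19:10199132-10204169) had 28.3, 37.6 and 50.4 CPM in the *Dnmt3a*(+/+) tumors and 42.2, 48.4, 43.5 and 54.6 CPM in the *Dnmt3a*(+/-) tumors. *Dnmt3a*(+/-) replicate 4 alone lay above all *Dnmt3a*(+/+) tumors. *Fen1* averaged 47.2 ± 5.59 CPM over the *Dnmt3a*(+/-) tumors (SD, n = 4) against 38.8 ± 11.1 CPM over the *Dnmt3a*(+/+) tumors (SD, n = 3), and the log2 fold change was 0.28 (SE 0.21, adjusted p = 0.65). *Lig1* ranged over 34.8 to 88.0 CPM with *Dnmt3a*(+/+) BM and 59.9 to 95.5 CPM with *Dnmt3a*(+/-) BM, with a log2 fold change of 0.32 (SE 0.32), and its level in *Dnmt3a*(+/+) replicate 3 was above those of *Dnmt3a*(+/-) replicates 1, 2 and 3.

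Deoxynucleotides are supplied by ribonucleotide reductase, made of *Rrm1* and *Rrm2*, and thymidylate by *Tyms*. *Rrm2* (ENSMUSG00000020649, chr12:24708241-24714146), the small subunit made in S phase, had 36.8, 41.5 and 70.7 CPM in the *Dnmt3a*(+/+) tumors and 59.1, 67.6, 55.5 and 85.0 CPM in the *Dnmt3a*(+/-) tumors. *Dnmt3a*(+/+) replicate 3 was the second highest of the 7 tumors, below *Dnmt3a*(+/-) replicate 4. *Rrm2* averaged 66.8 ± 13.1 CPM over the *Dnmt3a*(+/-) tumors (SD, n = 4) against 49.7 ± 18.4 CPM over the *Dnmt3a*(+/+) tumors (SD, n = 3), and the log2 fold change was 0.43 (SE 0.26, adjusted p = 0.58). *Rrm1* ranged over 84.1 to 156 CPM with *Dnmt3a*(+/+) BM and 118 to 174 CPM with *Dnmt3a*(+/-) BM. *Tyms* ranged over 34.3 to 71.1 CPM with *Dnmt3a*(+/+) BM and 38.8 to 76.6 CPM with *Dnmt3a*(+/-) BM. Their log2 fold changes were 0.31 and 0.12 (SE 0.25 and 0.31), and without *Dnmt3a*(+/+) replicate 1 *Tyms* was at -0.097.

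The G1/S regulators switch these genes on. *E2f1* (ENSMUSG00000027490, chr2:154559407-154569892), an activating E2F factor, had 5.59, 8.85 and 12.9 CPM in the *Dnmt3a*(+/+) tumors and 8.93, 15.8, 11.6 and 18.5 CPM in the *Dnmt3a*(+/-) tumors. *Dnmt3a*(+/-) replicates 2 and 4 lay above all *Dnmt3a*(+/+) tumors. *E2f1* averaged 13.7 ± 4.25 CPM over the *Dnmt3a*(+/-) tumors (SD, n = 4) against 9.12 ± 3.67 CPM over the *Dnmt3a*(+/+) tumors (SD, n = 3), and the log2 fold change was 0.59 (SE 0.37, adjusted p = 0.58). *Ccne1* and *Ccne2* encode cyclin E. *Ccne1* ranged over 9.05 to 19.7 CPM with *Dnmt3a*(+/+) BM and 13.9 to 27.3 CPM with *Dnmt3a*(+/-) BM. *Ccne2* ranged over 10.2 to 16.3 CPM with *Dnmt3a*(+/+) BM and 11.3 to 20.2 CPM with *Dnmt3a*(+/-) BM. *Ccne1* had the same order of the 7 tumors as *E2f1*, with a log2 fold change of 0.58 (SE 0.35). *Ccne2*, at 0.093 (SE 0.28), had its lowest level in *Dnmt3a*(+/+) replicate 3 and its highest in *Dnmt3a*(+/-) replicate 2.

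**Figure D2:**
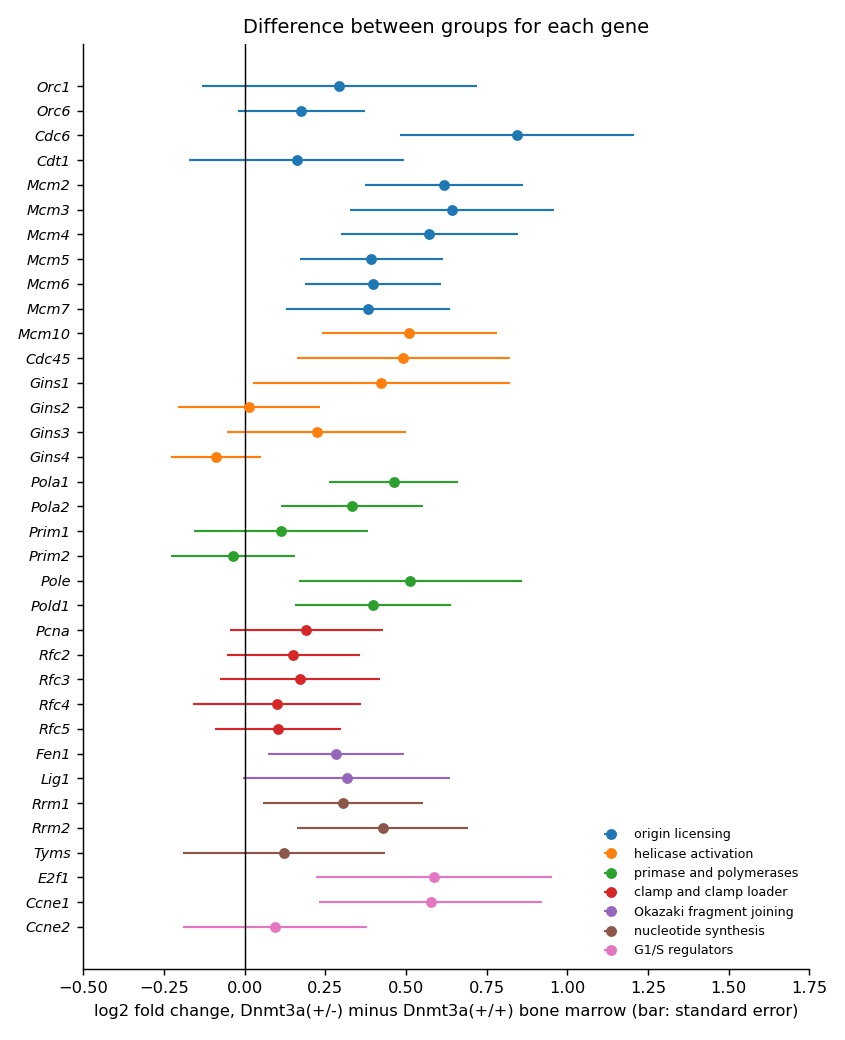
Log2 fold change of each of the 35 genes on the x axis, *Dnmt3a*(+/-) BM over *Dnmt3a*(+/+) BM, with bars for 1 standard error and colors for the 7 roles. Points lie right of 0 for 33 genes, and *Gins4* (-0.090) and *Prim2* (-0.037) lie left of it, though both were above 0 when counts were scaled by library size alone. *Cdc6* lies farthest right at 0.84.

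Levels of different genes were compared per kb of the principal transcript, with the 7 tumors as 1 group. *Pcna* was the most abundant at 153 ± 33.6 CPM per kb (SD, n = 7), and its lowest tumor (111 CPM per kb) lay above the highest tumor of every other member. *Mcm7* (35.5 ± 9.32 CPM per kb), *Rrm1* (32.2 ± 7.84 CPM per kb) and *Mcm6* (29.4 ± 6.27 CPM per kb) came next. Their ranges over the tumors overlapped, but within each tumor *Mcm7* lay above *Mcm6*. The least abundant were *Gins3* (1.45 ± 0.225 CPM per kb), *Pole* (1.78 ± 0.587 CPM per kb) and *Orc1* (3.34 ± 1.54 CPM per kb). The ranges of *Pole* overlapped those of both other genes, though within each tumor *Orc1* lay above *Pole*. The ranges of *Gins3* and *Orc1* did not overlap. *E2f1* (4.29 ± 1.62 CPM per kb) and *Cdc6* (4.13 ± 1.80 CPM per kb) also lay low and within each other's spread. The 6 subunits of the Mcm ring, which are present once each in the ring, lay within 2.32 to 2.93-fold of each other in every tumor, from *Mcm4* (14.2 ± 4.40 CPM per kb) to *Mcm7*. *Rfc2* to *Rfc5*, also present once each in the loader, lay within 1.94 to 2.499-fold, from *Rfc2* (11.2 ± 2.12 CPM per kb) to *Rfc3* (24.3 ± 5.70 CPM per kb). The GINS subunits lay further apart, and *Gins4* (24.9 ± 2.19 CPM per kb) was 11.8 to 21.8-fold above *Gins3*. In the primase and polymerase α complex, *Prim1* (17.6 ± 4.62 CPM per kb) stood 3.10 to 7.68-fold above *Pola1* (3.83 ± 0.870 CPM per kb). The order of levels depended on the length used. With the union of all exons, *Pcna* stayed the highest (96.6 CPM per kb), *Gins4* came next (24.9 CPM per kb), *Rrm1* was at rank 14 instead of 3 (11.7 CPM per kb), and the lowest 3 were *Pole*, *Gins3* and *Cdc6*, with *Orc1* at rank 28 of 35. Within the complexes, *Mcm7* stayed the highest of the ring and *Mcm2* became the lowest, and *Rfc4* became the highest of the loader.

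**Figure D3:**
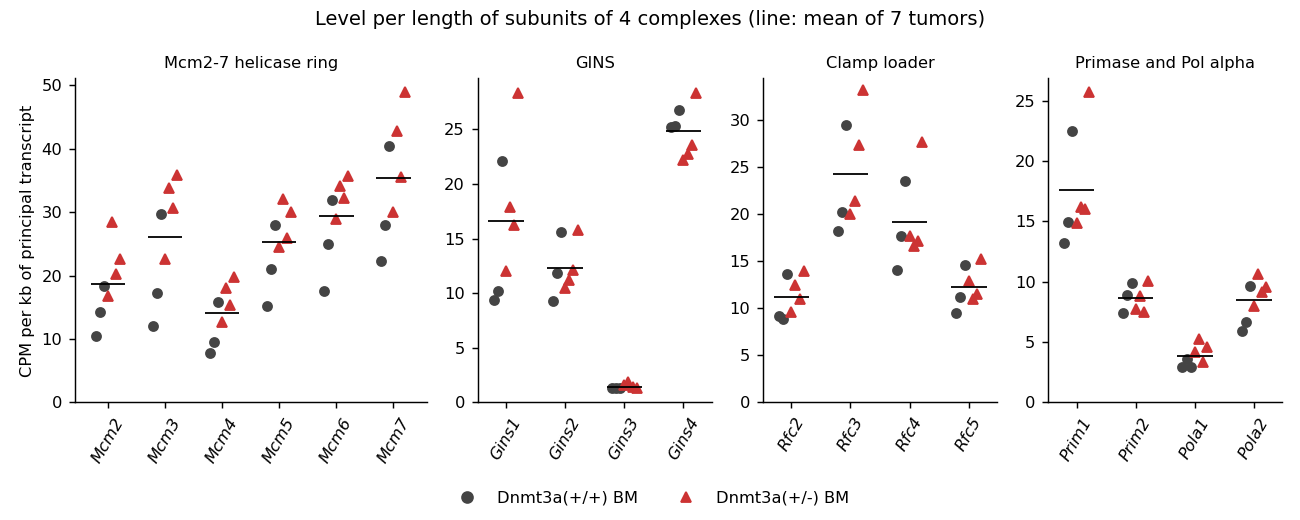
CPM per kb of principal transcript on the y axis for each subunit of 4 complexes on the x axis, with gray circles for the 3 *Dnmt3a*(+/+) tumors, red triangles for the 4 *Dnmt3a*(+/-) tumors and a line for the mean of 7. The subunits of the Mcm ring and of the clamp loader lie at most 2.93 and 2.499-fold apart in a tumor, and *Gins3* lies at 1.29 to 1.92 CPM per kb, far below *Gins4*.

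The members varied together from tumor to tumor. Over the 7 tumors, the median Pearson correlation of log2 levels over the 595 pairs of members was 0.82, and it was 0.86 after the group means were removed. For 27 of 35 genes, r with the mean of the other members was over 0.8, as for 7.33% of the other genes tested. These values describe 7 tumors that share their scaling, and the genes are not independent replicates. *Mcm7* followed the others most closely (r = 0.997), and *Ccne2* (r = -0.057), *Gins3* (r = 0.11), *Gins4* (r = 0.29) and *Pola1* (r = 0.52) followed least. The spread was larger with *Dnmt3a*(+/+) BM: the median coefficient of variation of the members was 28.6% over the 3 *Dnmt3a*(+/+) tumors and 19.5% over the 4 *Dnmt3a*(+/-) tumors, and it was larger with *Dnmt3a*(+/+) BM for 28 of 35 genes, where this held for 46.1% of the 10907 genes of like level (mean of 3.65 to 231.8 CPM). Over all 7 tumors it was 25.9% for the members and 23.2% for genes of like level. From the lowest to the highest tumor, *Cdc6* ranged 3.69-fold, *Orc1* 3.28-fold and *Orc6* 1.67-fold.

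Within the experiments, the groups stood further apart in BMT18 than in BMT8, a difference that did not pass a test. In BMT18, both *Dnmt3a*(+/-) tumors lay above both *Dnmt3a*(+/+) tumors for 23 of 35 genes (23.5% of all genes) and below them for 1 (26.2%). These 23 included 9 of 10 licensing genes, with all 6 Mcm subunits, and 1 of 5 clamp and loader genes. In BMT8, which has 1 *Dnmt3a*(+/+) tumor, both *Dnmt3a*(+/-) tumors lay above it for 8 genes (36.5% of all genes), below it for 2 (35.5%) and on either side of it for 25. There *Dnmt3a*(+/-) replicate 4 was above the *Dnmt3a*(+/+) tumor for 33 genes and *Dnmt3a*(+/-) replicate 3 for 8. The test of the difference itself, an interaction of group and experiment, gave an unadjusted p under 0.05 for 0 of 35 genes (4.62% of all genes) and called 0. With the experiment as a term in edgeR's model, 4 genes were higher at an unadjusted p under 0.05 (7.41% of all genes) and 0 lower (7.32%), 0 were called, and the median log2 fold change was 0.28.

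Most members had higher mean levels in BMT8 than in BMT18, and none passed the test. With the group in the model, the log2 fold change of BMT8 over BMT18 was above 0 for 32 of 35 genes (46.2% of all genes), with a median of 0.40 where that of all genes was -0.049. At an unadjusted p under 0.05, 6 were higher in BMT8 (10.8% of all genes) and 0 lower (8.59%), and edgeR called 0 of the 35 and 1 of all genes (0.00633%). These 6 were *Rfc3* (0.57, SE 0.13, adjusted p = 0.19), *Cdt1* (0.70), *Gins1* (0.82), *Gins2* (0.44), *Prim1* (0.53) and *Lig1* (0.63). The count moved from 1 without *Dnmt3a*(+/+) replicate 3 to 24 without *Dnmt3a*(+/-) replicate 2. It was 17 without *Dnmt3a*(+/-) replicate 3 and 2 without *Dnmt3a*(+/+) replicate 1 or without *Dnmt3a*(+/-) replicate 1 or 4. The share of all genes in these fits with 1 tumor left out is not given here, so these counts have no background.

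Of 60 other genes of replication, nucleotide supply, chromatin assembly and G1/S control, 47 had a log2 fold change above 0, with a median of 0.22, and 0 were called. At an unadjusted p under 0.05, 9 were higher (5.83% of all genes) and 1 lower (5.2%), and the groups did not overlap in 6 that were higher (6.12%) and 2 that were lower (6.32%). Scaled by library size alone, 19 were higher (10.7% of all genes). The 9 were 2 without *Dnmt3a*(+/+) replicate 1 (4.28% of all genes) and 3 without *Dnmt3a*(+/+) replicate 2 (2.72%). They were 4 without any one of *Dnmt3a*(+/-) replicates 2, 3 and 4 (4.00%, 4.54% and 5.48%). They were 18 without *Dnmt3a*(+/+) replicate 3 (6.04%), which left *Dnmt3a*(+/+) tumors of BMT18 alone. *Dnmt1* (ENSMUSG00000004099, chr9:20907209-20959888), which copies DNA methylation onto the new strand behind the fork, had 43.8, 57.3 and 37.9 CPM in the *Dnmt3a*(+/+) tumors and 81.2, 102, 70.5 and 83.9 CPM in the *Dnmt3a*(+/-) tumors. Every *Dnmt3a*(+/-) tumor lay above every *Dnmt3a*(+/+) tumor. *Dnmt1* averaged 84.3 ± 12.9 CPM over the *Dnmt3a*(+/-) tumors (SD, n = 4) against 46.3 ± 9.96 CPM over the *Dnmt3a*(+/+) tumors (SD, n = 3), and the log2 fold change was 0.86 (SE 0.20, adjusted p = 0.36). Its unadjusted p of 0.00247 was the lowest of the members and both comparison lists. DESeq2 gave it an adjusted p of 0.014, with a fold change below the threshold for a call.

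*Atad2*, a bromodomain ATPase of replicating chromatin, had 16.4, 19.7 and 21.4 CPM with *Dnmt3a*(+/+) BM and 26.4, 41.5, 28.1 and 28.7 CPM with *Dnmt3a*(+/-) BM. *Pole2*, the second subunit of polymerase ε, had 5.51, 6.35 and 6.61 CPM with *Dnmt3a*(+/+) BM and 8.38, 11.5, 8.25 and 12.3 CPM with *Dnmt3a*(+/-) BM. Neither gene overlapped between groups, at log2 fold changes of 0.70 and 0.71 (SE 0.21 and 0.25, adjusted p = 0.38 and 0.41). *E2f2*, an activating E2F factor like *E2f1*, was the 1 gene lower at an unadjusted p under 0.05, with 27.6, 29.1 and 34.5 CPM in the *Dnmt3a*(+/+) tumors and 25.6, 20.7, 18.096 and 22.9 CPM in the *Dnmt3a*(+/-) tumors, which did not overlap. For *E2f2*, the log2 fold change was -0.48 (SE 0.17, adjusted p = 0.41). By role, the median log2 fold change was 0.44 for 7 chromatin assembly genes, 0.29 for 27 other replication proteins, 0.14 for 7 nucleotide supply genes and 0.065 for 19 genes of the E2F factors, Rb proteins and S-phase kinases, of which 12 were above 0.

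**Figure D4:**
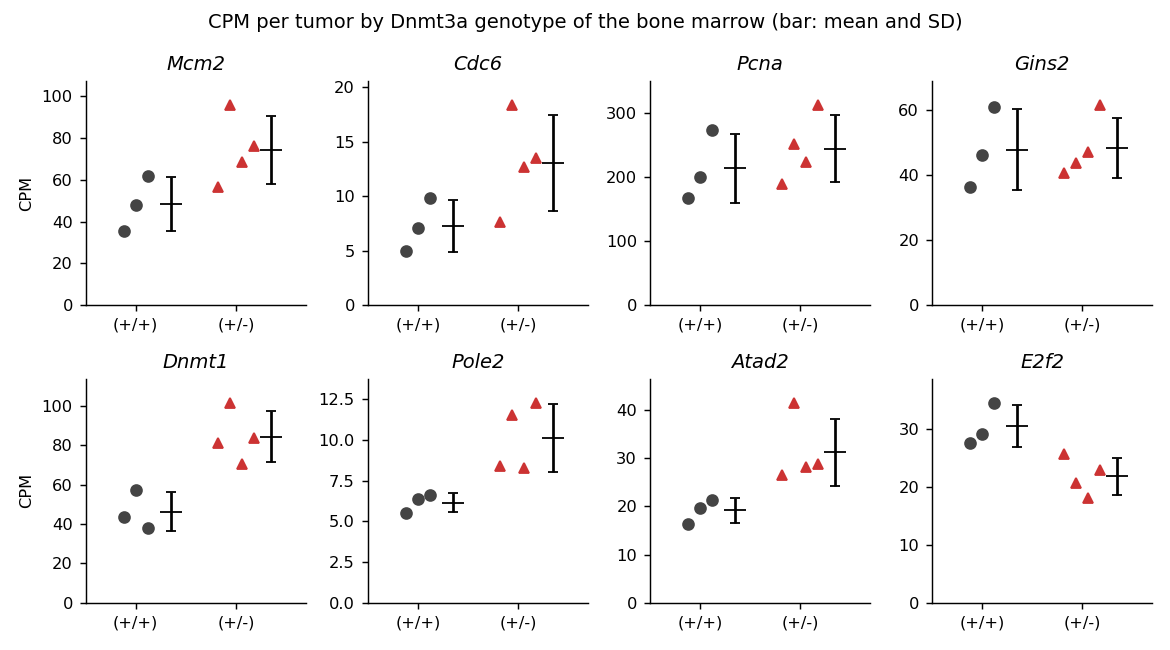
CPM on the y axis of 4 members (*Mcm2*, *Cdc6*, *Pcna* and *Gins2*) and 4 other genes of the pathway (*Dnmt1*, *Pole2*, *Atad2* and *E2f2*) in each tumor, with gray circles for 3 *Dnmt3a*(+/+) tumors and red triangles for 4 *Dnmt3a*(+/-) tumors. Bars give the mean and SD of each group. The groups overlap in the 4 members and do not overlap in the other 4 genes.

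The mitosis genes, the nearest group in function, were used for comparison. Of 30 genes, 27 were above 0, with a median log2 fold change of 0.29, 2 were higher at an unadjusted p under 0.05 (5.83% of all genes), and 0 were called. Those 2 were *Kif20a*, a kinesin of cytokinesis, and *Ncapd2*, a condensin subunit. *Kif20a* had 27.8, 25.3 and 37.8 CPM with *Dnmt3a*(+/+) BM and 51.1, 49.7, 38.3 and 38.6 CPM with *Dnmt3a*(+/-) BM, which did not overlap, and *Ncapd2* had 41.1, 60.2 and 56.5 CPM and 81.1, 83.8, 60.1 and 64.8 CPM, which overlapped. The log2 fold changes were 0.55 and 0.46 (SE 0.20 and 0.19, adjusted p = 0.41 and 0.44). The spindle checkpoint kinase *Bub1b* had 28.5, 35.6 and 41.0 CPM with *Dnmt3a*(+/+) BM and 48.4, 58.5, 36.8 and 47.1 CPM with *Dnmt3a*(+/-) BM, and the condensin core subunit *Smc2* had 30.04, 48.9 and 50.6 CPM and 56.7, 68.6, 49.2 and 65.2 CPM. Both overlapped, in *Dnmt3a*(+/-) replicate 3, and the log2 fold changes were 0.44 and 0.47 (SE 0.20 and 0.22, adjusted p = 0.47 and 0.48). The log2 fold change of the topoisomerase *Top2a* was 0.57 (SE 0.28) and that of the proliferation marker *Mki67* was 0.19 (SE 0.38). *Mki67* had 87.8, 139.9 and 282 CPM in the *Dnmt3a*(+/+) tumors and 195, 173, 162 and 246 CPM in the *Dnmt3a*(+/-) tumors, with the highest value in *Dnmt3a*(+/+) replicate 3. The count of 2 was 8 with counts scaled by library size alone (10.7% of all genes). It was 10 without *Dnmt3a*(+/+) replicate 3 (6.04%), which left *Dnmt3a*(+/+) tumors of BMT18 alone. The count was 4 without *Dnmt3a*(+/-) replicate 3 (4.54%), and 1 without *Dnmt3a*(+/+) replicate 2 or without *Dnmt3a*(+/-) replicate 1 or 2 (2.72%, 7.71% and 4.00%). Without *Dnmt3a*(+/+) replicate 1 it was 0 (4.28%). The mean log2(CPM + 0.5) over the 30 genes was 4.97, 5.42 and 5.80 in the *Dnmt3a*(+/+) tumors and 5.78, 5.78, 5.39 and 5.76 in the *Dnmt3a*(+/-) tumors. In BMT18, 27 of 30 mitosis genes had both *Dnmt3a*(+/-) tumors above both *Dnmt3a*(+/+) tumors (23.5% of all genes), and in BMT8 16 had both below the *Dnmt3a*(+/+) tumor (35.5% of all genes), where 2 of the 35 replication genes did. The interaction of group and experiment had an unadjusted p under 0.05 for 6 of the 30 mitosis genes and 0 of the 35 replication genes (4.62% of all genes), with 0 called in each.

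Markers of cell types differed between the tumors as well. The summed level of 10 epithelial markers was 19448 to 37756 CPM with *Dnmt3a*(+/+) BM and 10669.7 to 23918 CPM with *Dnmt3a*(+/-) BM, and 9 of 10 had a log2 fold change below 0 (median -0.52), opposite in sign to most replication genes, with *Cdx2* the exception. The 6 endothelial markers summed to 11.8 to 21.0 CPM with *Dnmt3a*(+/+) BM and 25.3 to 110.4 CPM with *Dnmt3a*(+/-) BM without overlap, and all 6 were above 0. The 8 fibroblast markers summed to 157 to 307 CPM with *Dnmt3a*(+/+) BM and 238 to 1031 CPM with *Dnmt3a*(+/-) BM, and all 8 were above 0, with *Dnmt3a*(+/-) replicate 2 the highest. The 5 smooth muscle markers summed to 21.4 to 828 CPM with *Dnmt3a*(+/+) BM and 217 to 1027 CPM with *Dnmt3a*(+/-) BM, and the lowest sum was that of *Dnmt3a*(+/+) replicate 3. The 9 leukocyte markers tested summed to 61.3 to 137 CPM with *Dnmt3a*(+/+) BM and 85.0 to 197 CPM with *Dnmt3a*(+/-) BM, and 6 of 9 were above 0. Of these markers, edgeR called 0 and DESeq2 called 3, all endothelial, but DESeq2 gave no adjusted p for 3 fibroblast markers and 1 endothelial marker. The part of cell composition in the differences of the replication genes was not tested.

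**Figure D5:**
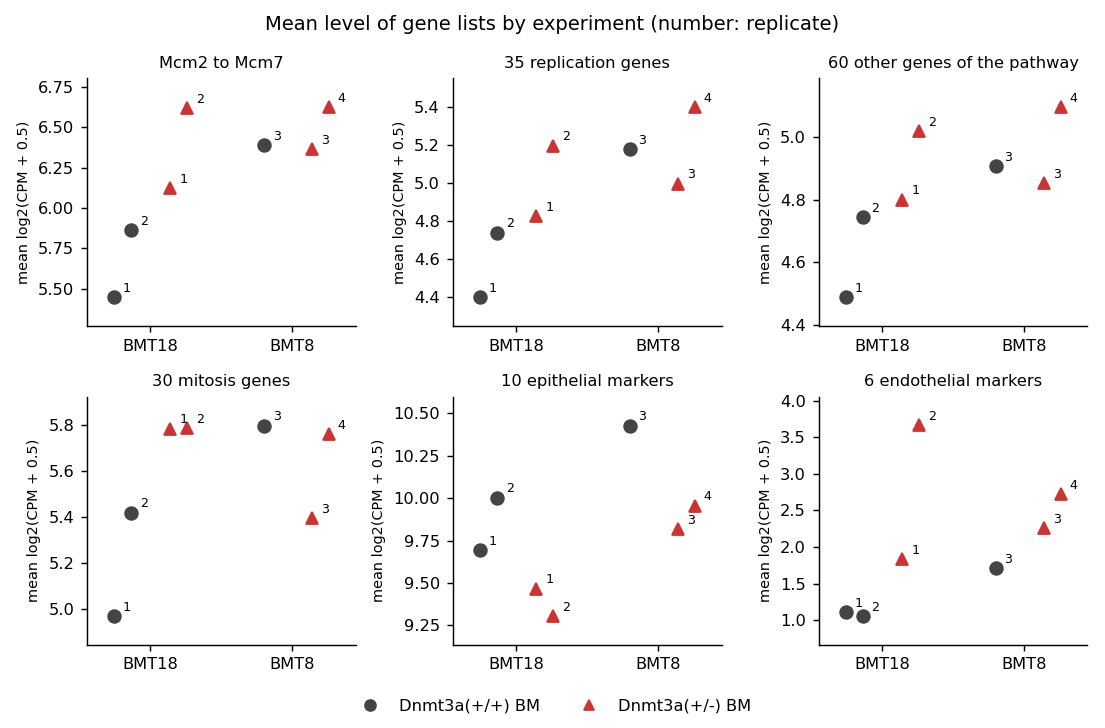
Mean log2(CPM + 0.5) on the y axis of 6 gene lists, by experiment on the x axis, with gray circles for *Dnmt3a*(+/+) tumors and red triangles for *Dnmt3a*(+/-) tumors, each with its replicate number. In BMT18 both *Dnmt3a*(+/-) tumors lie above both *Dnmt3a*(+/+) tumors for the Mcm ring, the 35 replication genes, the 60 other genes of the pathway and the mitosis genes, and below them for the epithelial markers. In BMT8 the *Dnmt3a*(+/+) tumor lies between the *Dnmt3a*(+/-) tumors for the first 3 lists and above both for the mitosis genes and the epithelial markers.

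Reads of neighboring genes could enter some values. In 11 of the 35 genes (*Ccne2*, *Cdc45*, *Fen1*, *Gins2*, *Lig1*, *Mcm7*, *Orc1*, *Orc6*, *Rfc2*, *Rfc4* and *Rfc5*), at least 5% of exon bases lie in an exon of a gene on the opposite strand. The library kit keeps the strand, and the strand setting of the counting is not given in the sources used here, so values of these genes are less certain.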

How the data were processed

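The authors sequenced polyadenylated RNA of whole colon tumors. Per the labels and methods, reads were trimmed (Trimmomatic) and aligned to mm10 (STAR), and RSEM estimated the counts of each gene. The deposited values are these estimated counts (expected counts), 100% of them whole numbers, without normalization, in 1 column per tumor and 0 columns of other samples. The annotation release and the strand setting are not given in the sources used here. Tumors were grouped by the genotype in the labels, and columns were assigned to tumors by their names.

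The quasi-likelihood test of edgeR 4.0.16 (R 4.3.3) compared the groups without covariates over the 15810 genes that filterByExpr kept, with TMM scaling and p-values adjusted by Benjamini-Hochberg. A call needed a log2 fold change beyond 1 in size and an adjusted p below 0.05. The SE is the log2 fold change divided by the square root of the F statistic. Means over genes used log2(CPM + 0.5). Symbols matched 42462 of 43346 identifiers, and positions and transcript lengths are those of GENCODE M21 on GRCm38. Genes without a symbol held 0.104% of counts. The 35 members and the lists of pathway, mitosis and marker genes were chosen with earlier results of these data known. Of the leukocyte list, 1 gene is not reported here. Full values are given for members at an unadjusted p under 0.05, 1 member for each role and the member nearest to 0, and, in the pathway and mitosis lists, for the 4 genes with the lowest p. Promoters came from RefSeq. The fits were tested on simulated data. No 2 tumors were duplicates (highest Spearman correlation 0.984). Alternatives were DESeq2 1.42.0, other scalings, filters and dispersions, the experiment as a term, the replicate number as a block, BMT18 alone and each tumor left out. BMT8 alone, the interaction, the omission of Dnmt3a(+/+) replicates 1 and 3 together and the exon union as length were chosen after seeing the data. Total counts per tumor were 38472738 to 64314999, and the mean level of members ran from 3.65 to 231.8 CPM.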

Additional observations from a re-analysis of the deposited data

Results flagged for a closer look

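Of 62 values examined for a tumor standing apart among the 4 Dnmt3a(+/-) tumors, 7 did, where chance alone gives about 3.1 (1 in 20). The values come from the same 4 tumors and many vary together, so they are not separate trials and no excess can be read from the 7. Dnmt3a(+/-) replicate 4 stood apart as the highest for *Orc1* (19.9 CPM, next 9.20 CPM), *Prim1* (40.7 CPM, next 25.6 CPM) and *Rfc4* (33.9 CPM, next 21.6 CPM). Dnmt3a(+/-) replicate 2 stood apart as the highest for *Ccne2* (20.2 CPM, next 12.5 CPM), for *Atad2* (41.5 CPM, next 28.7 CPM) and for the mean log2(CPM + 0.5) of the fibroblast markers (5.98, next 4.14). Dnmt3a(+/-) replicate 3 was the lowest for the mean of the mitosis genes (5.39, next 5.76).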

How the results depend on the processing

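With edgeR, 0 members were called under every alternative run, and DESeq2 called 304 of all genes. The number of members higher at an unadjusted p under 0.05 (2, where 5.83% of all genes were) was 15 when counts were scaled by library size alone (10.7% of all genes), 4 with the experiment as a term (7.41%), 5 in BMT18 alone (3.58%) and 0 to 19 with 1 tumor left out (2.72 to 7.71%). The same shares of all genes apply to the counts of other pathway genes and mitosis genes that follow, with 2.58% without Dnmt3a(+/+) replicates 1 and 3. For the other pathway genes (9), it was 19 with library size alone, 1 without Dnmt3a(+/+) replicates 1 and 3, and 2 to 18 with 1 tumor left out, and the median log2 fold change with library size alone was 0.43. For the mitosis genes (2), it was 8 with library size alone, 9 in BMT18 alone, where the median was 0.63, 1 without Dnmt3a(+/+) replicates 1 and 3, and 0 to 10 with 1 tumor left out. Members with every Dnmt3a(+/-) tumor above every Dnmt3a(+/+) tumor (0, where 6.12% of all genes were) numbered 5 with library size alone (11.2% of all genes), 23 in BMT18 alone (23.5%), 8 in BMT8 alone (36.5%), 21 without Dnmt3a(+/+) replicates 1 and 3 (21.5%), and 0 to 21 with 1 tumor left out (7.30 to 12.8%). The opposite held for 1 member in BMT18 alone (26.2% of all genes) and 2 in BMT8 alone (35.5%). It also held for 1 member without Dnmt3a(+/-) replicate 4, where the share of all genes is not given here. Members higher in BMT8 at an unadjusted p under 0.05 (6, where 10.8% of all genes were) numbered 2 with library size alone and 1 to 24 with 1 tumor left out. For these alternatives the share of all genes higher in BMT8 is not given here. Fewer tumors were compared in BMT18 alone, in BMT8 alone and in each fit with tumors left out, and the cause of the other changes was not tested. Wherever Dnmt3a(+/+) replicate 3 was left out, no Dnmt3a(+/+) tumor of BMT8 remained, so group and experiment were mixed.

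The direction reversed for *Gins4* (0.12) and *Prim2* (0.18) with library size alone, for *Gins2* (-0.046) with the experiment as a term, for *Orc1* (-0.16) and *Prim2* (0.035) in BMT18 alone, and for *Ccne2* (-0.23) without Dnmt3a(+/+) replicates 1 and 3. With 1 tumor left out, log2 fold changes crossed 0 for *Orc1* (-0.17 to 0.47), *Cdt1* (-0.085 to 0.63), *Gins2* (-0.15 to 0.22), *Prim1* (-0.10 to 0.37), *Prim2* (-0.15 to 0.058), *Rfc4* (-0.11 to 0.31), *Rfc5* (-0.035 to 0.28), *Tyms* (-0.097 to 0.44), *Ccne2* (-0.11 to 0.28) and *Mki67* (-0.12 to 0.76).

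The labels number replicates in both groups, and the deviations of tumors with the same number correlated at 0.61, 0.11 and -0.073, so the numbers were not taken to pair the tumors. With the replicate number as a block over pairs 1 to 3, the members higher at an unadjusted p under 0.05 numbered 3 (5.09% of all genes), the other pathway genes 6 and the mitosis genes 0. Between the groups, 2 members did not overlap, *Gins3* as higher (8.72% of all genes) and *Gins4* as lower (share of all genes not given here). Under this replicate block *Orc1* (-0.13), *Gins2* (-0.093), *Prim1* (-0.063), *Rfc4* (-0.074) and *Tyms* (-0.035) reversed.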
